A study of Mus musculus with 4 samples.

Results

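The genes described here are 8 transcriptional regulators that act on one short DNA element, the E-box. They are the inhibitors Id2 and Id3, the E proteins Tcf3, Tcf4 and Tcf12, the repressor Bhlhe40, and the zinc finger factors Zeb1 and Zeb2. They were taken by symbol from a list drawn up with earlier results of these data known, by no threshold on a measured value, and all 8 of the listed symbols were found among 55536 mouse genes. Total RNA had been sequenced from T cells of the spleen, which the labels mark by CD3, the signalling chains of the T cell receptor. The mice were males of the strain B6CASTF1/J, with a mother of C57BL/6 and a father of CAST/EiJ, 66 days old, untreated as far as the labels say. The 4 biological replicates formed a single group and are named libraries 1 to 4, each from 300 ng of RNA with ERCC spike-in RNAs. With no second condition, genes could be compared with each other inside a library, and libraries with each other. All 4 samples carry the same donor identifier in the labels, which do not state that each came from its own animal, so SDs and p-values measure only the spread between these samples, which may be technical.

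E proteins are basic helix-loop-helix (bHLH) transcription factors that bind the E-box, CANNTG, as dimers. Id proteins keep the helix-loop-helix but lack the basic region that touches DNA, so an E protein paired with an Id protein cannot bind. In the T lineage E proteins drive early development in the thymus and restrain later steps, while signals through the antigen receptor and cytokines raise Id3 and Id2 and so release the cell from that brake. Zeb1 and Zeb2 are unrelated zinc finger proteins that occupy overlapping E-box sequences and mostly repress transcription.

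The libraries held between 14584388 and 17335895 estimated counts. The T cell label matched its markers: all 12 genes of a T cell list, Cd3d, Cd3e, Cd3g and Trac included, stood above 10 TPM (the length-normalised share of a gene among all transcripts) in every library, and their sum was 3230 to 3349 TPM. Library 4 stood apart from the others in markers of other cells. Its summed B cell markers were 170.71 TPM against 14.99 to 20.71 in the other 3, and its summed erythroid markers, mostly haemoglobin, were 633.85 TPM against 15.78 to 62.62. Library 2 had the highest neutrophil sum, 32.59 TPM against 7.88 to 10.75. Other lists spanned 40.77 to 51.50 TPM for plasmacytoid dendritic cells, 1.58 to 4.46 for conventional dendritic cells, 71.54 to 81.97 for monocytes and macrophages, and 18.84 to 26.06 for natural killer cells. For plasma cells the sum was 34.33 to 37.81 TPM, for innate lymphoid cells 26.14 to 32.67, and for stroma and endothelium 50.57 to 61.39. Single genes made up most of several sums, with means of 33.3 TPM for Xbp1 (plasma cells) and 22.7 for Gata3 (innate lymphoid cells). Likewise, Ly6c2 had a mean of 45.2 TPM (monocytes and macrophages) and Pecam1 54.5 (stroma and endothelium). By contrast, Col1a1 and Cdh5 of the stroma and endothelium list had 0.198 and 0.205 TPM. In the plasmacytoid dendritic list Ccr9 and Pacsin1 had means of 18.1 and 14.2 TPM. Tnfrsf17, a defining plasma cell receptor, and Pdgfra, a stromal receptor, had no counts in any library. Results that rest on library 4 are therefore given with and without it.

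All 8 genes were transcribed in every library, and their levels spread over more than an order of magnitude. Each of the 8 reached 1 TPM in all 4 libraries, and 5 of them reached 10 TPM. For comparison, 9730 of 22015 protein-coding genes of the nuclear genome (44.2%) reached 1 TPM in all 4. The median of log2(mean TPM + 1) was 4.50 over the 8 genes and 0.55 over all protein-coding genes. Zeb1 was highest, at rank 635 of the 22015 protein-coding genes, followed by Tcf12 at rank 948, Id2 at rank 1053 and Tcf3 at rank 2060. Bhlhe40 followed at rank 4802, Id3 at 6496, Tcf4 at 7012 and Zeb2 at 8612. As these are bulk samples, fewer cells that transcribe a gene and less RNA of it per cell cannot be told apart.

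**Figure D1:**
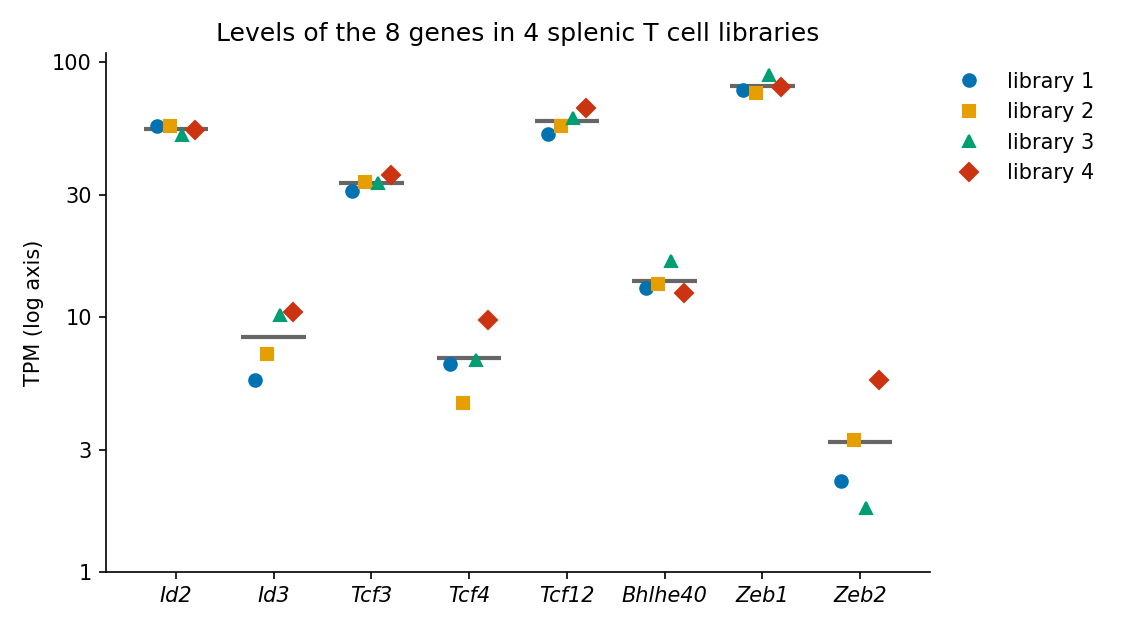
Gene level in TPM on a log axis for the 8 genes, 1 point per library and a bar at the mean of the 4 libraries. Zeb1, Tcf12, Id2 and Tcf3 lie between 31.24 and 89.01 TPM with tight points, while Id3, Tcf4 and Zeb2 lie between 1.78 and 10.49 TPM and spread more.

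The inhibitor Id2 had the smallest coefficient of variation in TPM of the 8 genes. It encodes the Id protein linked with effector and innate-like lymphocytes and lies on the minus strand of chromosome 12 (mm10, chr12:25093799-25097140). Its TPM was 55.87, 56.25, 51.47 and 54.01 in libraries 1 to 4, a mean of 54.4 ± 2.18 (SD, n = 4) and a coefficient of variation of 4.02%. No library stood apart. All 3 of its annotated transcripts are protein coding, so 100% of its level was assigned to coding RNA. Most of it, 86.4% ± 2.35 of TPM, was assigned to transcript Id2-201 and the rest to Id2-203. In the second deposited quantification Id2-201 took 65.5% ± 5.21, and Id2-202, at 0 in the first, had a share of 22.5% ± 5.002, so the split between these transcripts depended on the quantification.

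Id3 was lower than Id2 and differed more between libraries. It encodes the Id protein that rises after receptor signals and marks naive and follicular T cells, and it lies on the plus strand of chromosome 4 (chr4:136143497-136145755). Its TPM was 5.68, 7.16, 10.13 and 10.49 in libraries 1 to 4, a mean of 8.37 ± 2.33 (SD, n = 4). Libraries 3 and 4 lay above libraries 1 and 2 with no overlap, and library 1 was lowest. The count behind these levels was 104, 140, 186 and 170, the smallest mean among the 8 genes. The Id2 level was therefore 9.84, 7.86, 5.08 and 5.15 times that of Id3, and Id2 made up 86.7% ± 3.62 of the summed TPM of the pair. That sum was almost flat, between 61.55 and 64.5 TPM. Most Id3, 87.8% ± 1.99 of TPM, was on its single coding transcript, Id3-201, and 11.3% ± 3.74 was on a retained-intron transcript.

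Among the activators, Tcf12 and Tcf3 made up nearly all of the E protein RNA. Tcf12, also called HEB, lies on the minus strand of chromosome 9 (chr9:71842688-72111871). Its TPM was 51.94, 55.75, 60.05 and 65.88 in libraries 1 to 4, a mean of 58.4 ± 5.98 (SD, n = 4). The spread was smaller in CPM (counts scaled to the library total), 149 to 167. In log2 CPM with TMM scaling, an adjustment of the library totals, the farthest library, library 2, stood at -0.07 units from the mean. Tcf12 took 59.0% ± 0.826 of the summed E protein TPM, Tcf3 34.1% ± 1.64 and Tcf4 6.92% ± 1.59. Tcf12 exceeded Tcf3 by 1.65 to 1.84 times in every library on the TPM scale.

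The share of Tcf12 on complete messenger RNA depended on the scale. Transcripts annotated as coding held 66.1% ± 5.59 of its TPM, and those among them with a complete coding sequence 33.8% ± 4.97 of its TPM. Retained-intron models held 16.8% ± 2.35 and models marked for nonsense-mediated decay 16.9% ± 3.57. Of estimated counts, which are not divided by length, complete coding transcripts held 60.8% ± 5.45 and nonsense-mediated decay models 4.42% ± 1.08. The leading model was Tcf12-203, an incomplete one of 600 bases, with 17.3% ± 3.00 of TPM in the first quantification and 4.64% ± 2.02 in the second. By contrast, Tcf12-221 and Tcf12-202, complete coding transcripts of 3986 and 6299 bases, had 15.1% ± 3.34 and 12.2% ± 0.672 of TPM. They had 556 ± 111 and 717 ± 43.3 estimated counts against 82.0 ± 12.2 for Tcf12-203, a difference that follows from division by length. The gene is known to use an internal promoter besides its first one. Of its 21 annotated transcripts, 8 start inside the gene, and they took 16.1%, 15.3%, 21.5% and 29.96% of TPM in libraries 1 to 4. In the second quantification these shares were 20.5%, 19.4%, 26.9% and 25.8%. Libraries 3 and 4 lay above libraries 1 and 2 in both, and without library 4 the mean share was 17.6% ± 3.37 in the first and 22.3% ± 4.08 in the second (n = 3). Only 1 of the internal-start transcripts, Tcf12-207, has a complete coding sequence, and it took 5.88% ± 3.29 of the complete coding TPM in the first quantification and 3.97% ± 1.48 in the second. Its share in library 4 was the highest of the 4 in the first, at 9.83%, and the lowest in the second, at 2.34%. The locus also holds 7 provisional gene models on the same strand and the opposite-strand pseudogene Rpl15-ps2. The 11 overlapping genes together had a mean of 1492 counts, of which Rpl15-ps2 had 670.0. How many counts of the same-strand models belong to Tcf12 RNA was not tested.

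Tcf3, also called E2A, was even between libraries. It lies on the minus strand of chromosome 10 (chr10:80409514-80433647). Its TPM was 31.24, 33.81, 33.46 and 35.86 in libraries 1 to 4, a mean of 33.6 ± 1.89 (SD, n = 4). No library stood apart, and in log2 CPM with TMM scaling the farthest from the mean, library 3, differed from it by 0.04 units. In the first quantification transcripts with a complete coding sequence held 81.4% ± 4.48 of its TPM. A processed transcript without one, Tcf3-212, held 10.8% ± 1.29. In the second quantification these shares were 71.2% ± 5.47 and 18.2% ± 0.609. Of estimated counts in the first they were 95.1% ± 1.14 and 3.32% ± 0.523. By TPM in the first quantification, the leading coding transcripts were Tcf3-202 with 33.3% ± 6.82, Tcf3-210 with 23.0% ± 3.32 and Tcf3-207 with 17.2% ± 8.52.

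Tcf3 makes 2 proteins, E12 and E47, by use of 1 of 2 neighbouring exons that encode alternative forms of the bHLH domain, the part that binds DNA and pairs with E or Id proteins. The exons are shown because the choice between them is the isoform difference that these libraries resolved. Both lie on the minus strand in mm10, the E12 exon at chr10:80412827-80413062 (236 bases) and the E47 exon at chr10:80410398-80410624 (227 bases). They are printed 5′ to 3′ in the direction of transcription, as read from the GENCODE M21 transcripts Tcf3-210 and Tcf3-202. Capitals mark bases that differ between the exons in a global alignment, or that have no partner in it.
E12 exon: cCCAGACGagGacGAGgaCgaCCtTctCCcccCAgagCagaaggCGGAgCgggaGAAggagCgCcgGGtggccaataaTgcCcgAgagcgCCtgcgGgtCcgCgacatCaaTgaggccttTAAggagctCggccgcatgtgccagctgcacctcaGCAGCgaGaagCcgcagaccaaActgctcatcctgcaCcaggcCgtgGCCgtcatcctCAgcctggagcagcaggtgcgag
E47 exon: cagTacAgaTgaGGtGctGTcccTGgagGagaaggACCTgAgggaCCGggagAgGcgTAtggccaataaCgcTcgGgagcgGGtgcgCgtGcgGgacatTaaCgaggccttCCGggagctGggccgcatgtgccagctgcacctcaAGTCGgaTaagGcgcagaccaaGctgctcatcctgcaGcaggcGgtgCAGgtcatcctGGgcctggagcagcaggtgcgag
In the alignment 175 of 227 paired bases (77.1%) were identical, and bases in lower case are shared. GC content was 65.7% for the E12 exon and 64.3% for the E47 exon.

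E47 was the more abundant form in every library. The 6 complete coding transcripts with the E47 exon summed to 17.0, 19.61, 20.07 and 20.43 TPM in libraries 1 to 4. The 4 transcripts with the E12 exon summed to 9.25, 7.35, 8.72 and 6.81 TPM. The ranges did not overlap, and the lowest E47 value lay above the highest E12 value. The E47 share of the complete coding Tcf3 RNA was 64.8%, 72.7%, 69.7% and 75.0%, a mean of 70.6% ± 4.43 (SD, n = 4). The second deposited quantification, derived from the reads and not from the transcriptome alignment, gave 63.2%, 69.8%, 71.0% and 75.0%, a mean of 69.8% ± 4.89. Library 1 had the lowest share and library 4 the highest in both. In the first quantification a share of 70.7% ± 4.45 was obtained from estimated counts. The share of the single transcript Tcf3-210, which carries the E12 exon, was less certain, at 7.91% ± 8.37 of gene TPM in the second quantification, so the exon sum was steadier than the transcripts that make it up.

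**Figure D2:**
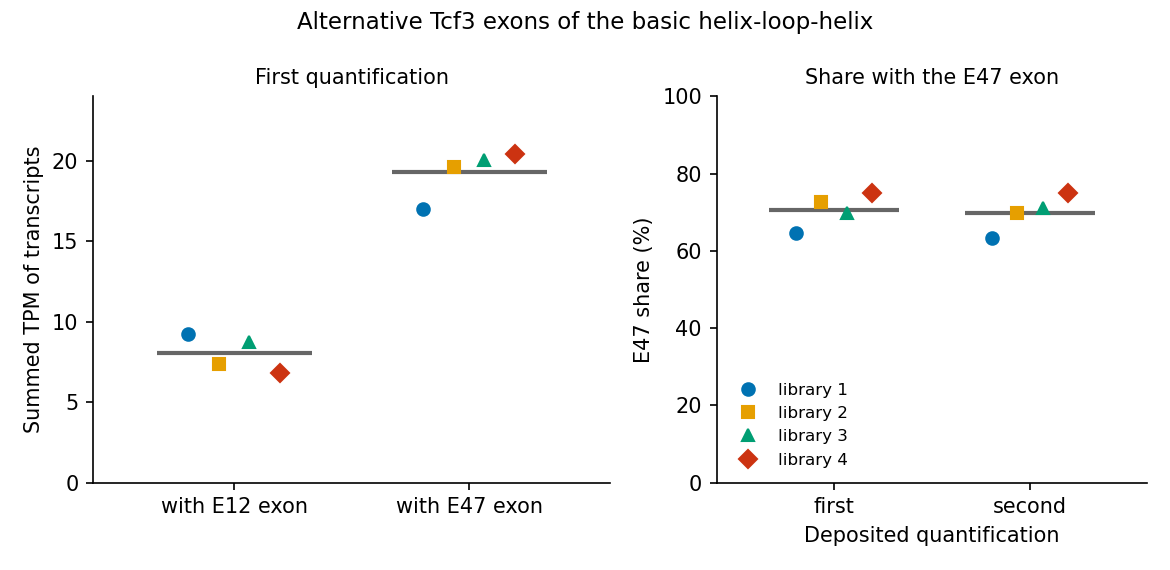
Left, summed TPM of the complete coding Tcf3 transcripts with the E12 or the E47 exon in the first quantification. Right, the percent of their sum that carries the E47 exon in each of the deposited quantifications, with 1 point per library and a bar at the mean of 4. E47 transcripts lie at 17.0 to 20.43 TPM, above the 6.81 to 9.25 TPM of E12 transcripts, and both quantifications place the E47 share between 63.2% and 75.0%.

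Tcf4, the E protein known for its part in plasmacytoid dendritic cells and B cells, was the lowest of the family. It lies on chromosome 18 and has 62 annotated transcripts, more than any other of the 8 genes. Its TPM was 6.55, 4.59, 6.80 and 9.71 in libraries 1 to 4, a mean of 6.91 ± 2.11 (SD, n = 4). Library 4 was highest and library 2 lowest, and without library 4 the mean was 5.98 ± 1.21 (n = 3). In CPM, which is not divided by transcript length, the values were 12.2, 10.8, 14.0 and 19.4, and library 4 was 1.57 times the mean of the other 3. Complete coding transcripts held 26.9% ± 6.59 of its TPM and retained-intron transcripts 31.0% ± 5.87. Of estimated counts they held 53.8% ± 3.99 and 31.2% ± 3.25. In the first quantification no transcript had a mean share of TPM above 11.8%. The level itself depended on the estimate. The posterior mean TPM that the authors deposited beside each TPM was 11.6 ± 2.57, and the deposited TPM lay below the lower bound of the deposited interval of that estimate in 4 of 4 libraries. Tcf3 was higher than Tcf4 in every library, by 3.69 to 7.37 times in TPM, by 2.30 to 3.61 times in posterior mean TPM and by 11.9 to 20.5 times over complete coding transcripts.

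Bhlhe40, a bHLH repressor induced by activation that also binds E-box sequences, stood between the abundant and the low members. It lies on the plus strand of chromosome 6 (chr6:108660629-108666925). Its TPM was 12.99, 13.41, 16.57 and 12.42 in libraries 1 to 4, a mean of 13.8 ± 1.86 (SD, n = 4). Library 3 was highest and the other 3 lay within 1 TPM of each other. In the second quantification the TPM was 18.4, 21.5, 23.1 and 22.3, a mean of 21.3 ± 2.07, and library 3 was again highest but close to library 4. In the first quantification retained-intron transcripts held 42.1% of its TPM in library 3 and between 21.6% and 33.3% elsewhere, while the TPM of its coding transcripts was 9.70, 8.95, 9.59 and 9.74. Of estimated counts, coding transcripts held 77.8% in library 3 and 79.4% to 83.8% elsewhere. The main coding transcript, Bhlhe40-201, held 49.6% ± 3.76 of TPM in the first quantification and 35.6% ± 3.47 in the second. In the first, its TPM was 5.78, 7.18, 8.31 and 6.25 in libraries 1 to 4, so it too was highest in library 3. The even sum of coding transcripts arose because Bhlhe40-202, of 476 bases, was lowest there, with 3.92, 1.77, 1.28 and 3.49 TPM.

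Zeb1, a repressor of Il2 and other T cell genes, was the highest of the 8 genes, but little of its level was on messenger RNA. It lies on chromosome 18. Its TPM was 77.83, 75.41, 89.01 and 79.53 in libraries 1 to 4, a mean of 80.4 ± 5.96 (SD, n = 4). Library 3 was highest, and in log2 CPM with TMM scaling the farthest from the mean, library 2, stood at -0.08 units. Transcripts annotated as protein coding held 11.9% ± 0.610 of the TPM in the first quantification and 12.1% in the second, and processed transcripts without a coding sequence held 69.9% ± 1.44. A single one of these, Zeb1-208 of 790 bases, held 46.3% ± 3.52 of TPM in the first quantification and 52.2% ± 4.88 in the second. The complete coding transcript Zeb1-201, of 5801 bases, held 11.3% ± 0.598, or 9.10 ± 0.321 TPM. In estimated counts, which are not divided by length, Zeb1-201 had 848 ± 76.9 and Zeb1-208 had 420 ± 51.9, and coding transcripts took 42.0% ± 1.84 of all Zeb1 counts.

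Zeb2, which is linked with terminal effector T cells, natural killer cells and myeloid cells, was the lowest of the 8 genes and had the largest coefficient of variation. It lies on the minus strand of chromosome 2 (chr2:44983632-45117395). Its TPM was 2.27, 3.28, 1.78 and 5.63 in libraries 1 to 4, a mean of 3.24 ± 1.71 (SD, n = 4) and a coefficient of variation of 52.8%. Library 4 was highest, and without it the mean was 2.44 ± 0.765 (n = 3). In CPM the values were 8.88, 8.97, 7.57 and 15.5, and library 4 was 1.83 times the mean of the other 3, which lay close together. Counts were 140, 155, 124 and 226, spread over 29 annotated transcripts, none of which held more than 11.6% of TPM on average in the first quantification. Its mean was 5.51 ± 2.63 TPM in the second quantification. Its posterior mean TPM was 6.15 ± 1.85, and, as for Tcf4, the deposited TPM lay below the interval of that estimate in 4 of 4 libraries. For the other 6 genes the deposited TPM lay inside that interval in every library. The antisense gene Zeb2os had a mean of 2.5 counts. Zeb1 exceeded Zeb2 by 34.3, 23.0, 50.0 and 14.1 times in TPM, by 14.4, 13.2, 17.9 and 8.17 times in counts, and by 6.23, 7.02, 10.3 and 4.06 times over complete coding transcripts. The direction held in each library on each scale, but the size of the ratio did not.

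**Figure D3:**
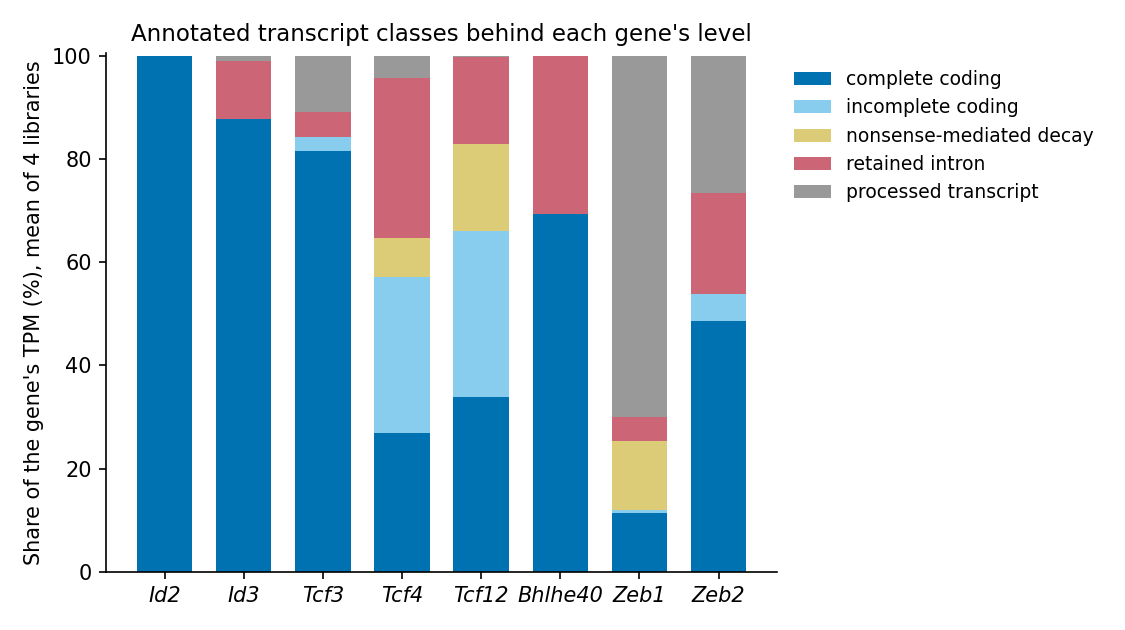
Mean share of each gene's TPM, in percent, by the annotated class of its transcripts, in the first quantification (4 libraries). Id2 is entirely complete coding, whereas Zeb1 has 11.3% in complete coding transcripts and 69.9% in processed transcripts.

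The order of the levels changed when only transcripts with a complete coding sequence were counted. Id2 then came first with 54.4 ± 2.18 TPM, ahead of Tcf3 with 27.3 ± 1.07 and Tcf12 with 19.5 ± 1.12. Bhlhe40 had 9.50 ± 0.369 TPM, Zeb1 9.10 ± 0.321 and Id3 7.35 ± 2.09, and Tcf4 and Zeb2 had 1.82 ± 0.579 and 1.46 ± 0.528. Zeb1 moved from place 1 to place 5, and Tcf12 fell behind Tcf3, to 0.656 to 0.807 times its level. Id2 alone kept its level, since all of its transcripts are complete.

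Neighbours in the order of mean TPM were compared within each library, as log2 of the ratio of TPM + 1, with a sign-flip permutation test, exact and two-sided. The smallest p this test can give with n = 4 is 0.125 (0.175 after Benjamini-Hochberg adjustment over the 7 pairs), so no pair could pass 0.05. The difference had the same sign in 4 of 4 libraries for 5 pairs: Zeb1 over Tcf12 by 0.46 ± 0.14, Id2 over Tcf3 by 0.68 ± 0.11, Tcf3 over Bhlhe40 by 1.23 ± 0.20, Bhlhe40 over Id3 by 0.69 ± 0.35 and Tcf4 over Zeb2 by 0.94 ± 0.50 log2 units (SD). For the first 4 of these the ranges over libraries did not overlap, whereas those of Tcf4 and Zeb2 did. Tcf12 and Id2 could not be ordered, with a log2 ratio of 0.10 ± 0.18 and Tcf12 higher in 2 of 4 libraries (exact permutation p = 0.5). Id3 and Tcf4 could not be ordered either, with a log2 ratio of 0.25 ± 0.35 and Id3 higher in 3 of 4 libraries (exact permutation p = 0.375). Counted on protein-coding transcripts alone, the log2 ratio of Zeb1 to Tcf12 was -1.90 and that of Tcf12 to Id2 was -0.49, both the other way round.

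Variation between the libraries was tested gene by gene with the goodness-of-fit test of edgeR, which asks whether a gene's counts spread more than those of genes of like abundance. None of the 8 genes was called by this edgeR test after Benjamini-Hochberg adjustment over 13118 tested genes, of which 183 (1.40%) were called. Unadjusted p-values were under 0.05 for 2 of the 8, against 603 of 13118 genes (4.60%). These were Zeb2, with an edgeR p of 0.00484 and a Benjamini-Hochberg adjusted p of 0.233, and Tcf4, with a p of 0.0170 and an adjusted p of 0.574. Id3 had an edgeR p of 0.0519 and Bhlhe40 of 0.0741, and Id2, Tcf3, Tcf12 and Zeb1 had p-values from 0.601 to 0.943. With a common dispersion in place of one that follows abundance, edgeR called Zeb2 with an adjusted p of 0.011, while its adjusted p was 0.233 to 1 under every other alternative tried.

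Zeb2 and Tcf4 stood highest in library 4, the library with the raised B cell and erythroid markers. Relative to the mean of the 4 libraries, log2 CPM with TMM scaling was higher in library 4 by 0.62 for Zeb2, 0.45 for Tcf4 and 0.31 for Id3. Id3 was almost as high in library 3, by 0.30. There the summed B cell and erythroid markers were lowest, at 14.99 and 15.78 TPM. All 12 B cell markers were highest in library 4, with Igkc at 67.89 TPM against 5.42 to 7.20 in the others. The edgeR test called 9 of the 9 B cell markers it tested. Of the plasmacytoid dendritic list, the sum was 51.50 TPM in library 4 against 40.77 to 43.97, but only 3 of 8 markers were highest there. Of its 5 tested genes edgeR called 1, Irf8, with 9.07 TPM in library 4 against 4.26 to 4.87. Its Benjamini-Hochberg adjusted p was 0.00749 in the edgeR test of all 4 libraries, 1 without library 4 and 0.0955 without library 3. Ccr9, the highest of the list, had 17.9 TPM in library 4 against 16.37 to 19.34. All 7 natural killer markers were highest in library 4 too, with a sum of 26.06 TPM against 18.84 to 22.59 and none of 5 tested called. The margin varied: Tyrobp had 7.36 TPM in library 4 against 3.62 to 6.43, but Il18rap 6.57 against 6.06 to 6.45. For comparison, 4 of 12 T cell markers and 4 of 11 monocyte and macrophage markers were highest in library 4. Of the conventional dendritic markers 4 of 7 were, but their sum was highest in library 1, with 4.46 TPM against 3.73 in library 4. Among the 10 effector genes linked with Id2 and Zeb2, surveyed below, 7 were highest in library 4. The part of other cell types in the Zeb2, Tcf4 and Id3 levels was not tested. Without library 4 the edgeR p was 0.569 for Zeb2 and 0.335 for Tcf4, while it was 0.0238 for Id3 and 0.0153 for Bhlhe40, with Benjamini-Hochberg adjusted p-values of 1, 1, 0.688 and 0.560.

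**Figure D4:**
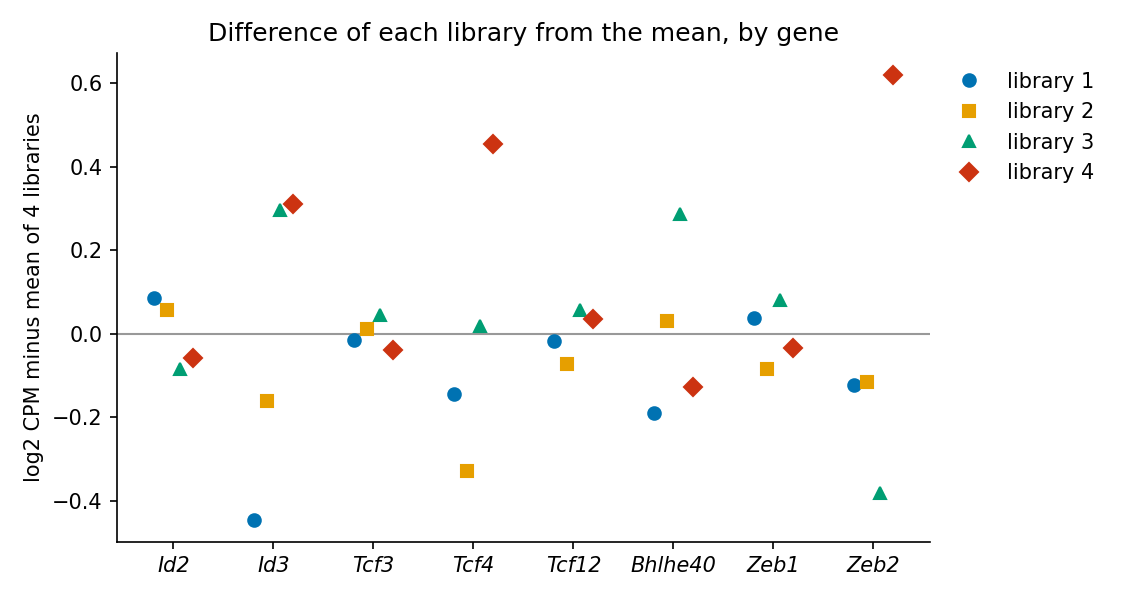
Difference between each library's log2 CPM with TMM scaling and the mean of the 4 libraries, for each of the 8 genes. Library 4 lies 0.62 above the mean for Zeb2 and 0.45 above for Tcf4, library 1 lies 0.45 below for Id3, and all points of Id2, Tcf3, Tcf12 and Zeb1 lie within 0.09 of it.

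The genes known to act with these factors were surveyed through 11 lists, which hold 77 other genes. Of the 77, 44 reached 1 TPM in all 4 libraries, 55 were tested for variation between libraries and 3 were called by edgeR. Over all protein-coding genes of the nuclear genome, 9730 of 22015 (44.2%) reached 1 TPM in all 4. Of these 22015 genes, 10835 were tested and 114 were called. Of the 4 Id genes, Id1 had 1.19 ± 0.147 TPM and Id4 no counts, which allows up to 0.174 to 0.206 CPM per library (3 counts, counting error only). Id2 and Id3 were thus the Id genes at appreciable levels. The tissue-restricted bHLH factors that pair with E proteins in other lineages were nearly silent. None of 10 reached 1 TPM in all libraries, Twist1, Twist2 and Nhlh2 had no counts, and Lyl1 (0.595 ± 0.733), Bhlha15 (0.342 ± 0.0854) and Tal1 (0.292 ± 0.142 TPM) led. Lyl1, a haematopoietic factor, had 0.18, 0.33, 0.18 and 1.69 TPM in libraries 1 to 4, and library 4 was highest. Without library 4 its mean was 0.230 ± 0.0866 (n = 3).

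Repressors of the Hes, Hey and Bhlhe kind were represented by Bhlhe40 and by Hes6 with 12.7 ± 0.314 TPM, the only 2 of 8 to reach 1 TPM in all libraries. Hey1 followed with 0.740 ± 0.252. Of the 5 zinc finger factors that bind E-boxes, Zeb1, Zeb2 and Snai3 (1.94 ± 0.295 TPM) reached 1 TPM in all libraries, and Snai2 had no counts. Of 12 corepressors and coactivators, 7 did so, led by Ldb1, an adaptor that bridges LIM proteins and bHLH dimers, with 128 ± 2.93 TPM. Ctbp1, a corepressor that Zeb proteins recruit, had 75.1 ± 6.27 TPM and Crebbp, an acetyltransferase that E proteins recruit, 51.6 ± 2.86. This list held 2 of the 3 called genes. Lmo2, a LIM adaptor of Tal1 and Ldb1, had 0.43, 1.31, 1.51 and 3.09 TPM with an edgeR Benjamini-Hochberg adjusted p of 0.00476. Cbfa2t3, a corepressor that binds E proteins, had 0.44, 1.31, 0.93 and 2.71 TPM with an adjusted p of 0.0259. Both were highest in library 4 and lowest in library 1. Without library 4 their means were 1.08 ± 0.575 and 0.893 ± 0.436 TPM (n = 3), and edgeR called neither, with an adjusted p of 1 for each. Without library 1 their edgeR adjusted p-values were 0.200 and 0.127. The part of other cells in this was not tested.

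Genes that set Id protein turnover were all present: Usp1, which removes ubiquitin from Id proteins, had 18.5 ± 0.625 TPM, Cops5 18.0 ± 1.07 and Fzr1, an activator of the anaphase-promoting complex, 10.5 ± 0.998. Of 13 genes linked with E proteins in thymocytes and T cells, 8 reached 1 TPM in all libraries. Il7r had 100.4 ± 5.54 TPM, Cd4 85.2 ± 6.54 and Foxo1 51.5 ± 1.27, while Rag1 and Rag2, the recombinase genes that E proteins switch on in the thymus, had no counts. Cxcr4, a chemokine receptor, was the third called gene, with 16.19, 27.39, 20.56 and 25.73 TPM and an edgeR Benjamini-Hochberg adjusted p of 0.0440. Library 1 was lowest and libraries 2 and 4 highest. Its edgeR adjusted p was 0.802, 0.779 and 0.0576 without libraries 1, 2 and 3 in turn, 0.0047 without library 4, and 0.280 in the second quantification.

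Genes of naive and follicular T cells linked with Id3 were the highest list. All 8 reached 1 TPM in all libraries, with a median log2(TPM + 1) of 7.06, and Tcf7 (430.5 ± 11.2) and Lef1 (236 ± 13.9 TPM), transcription factors of resting T cells, led. Of 10 effector genes linked with Id2 and Zeb2, 6 reached 1 TPM in all libraries, with a median of 2.11. Il2rb, a cytokine receptor chain, had 55.3 ± 2.86 TPM, Gzma, a granzyme, 32.4 ± 1.09 and Prf1, perforin, 14.6 ± 0.430. The effector genes that did not reach 1 TPM in all libraries were Gzmb, Klrg1, S1pr5 and Cx3cr1. Their means were 1.015, 0.745, 0.5025 and 0.4375 TPM. Factors upstream of Id3, Id2 and the Zeb genes were all present, 11 of 11, with a median of 4.46, led by Tgfbr2 (64.7 ± 1.74), Stat4 (48.9 ± 5.51) and Smad4 (46.1 ± 3.802 TPM). No gene of these last 3 lists was called by edgeR, and none of the lists was tested as a set.

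**Figure D5:**
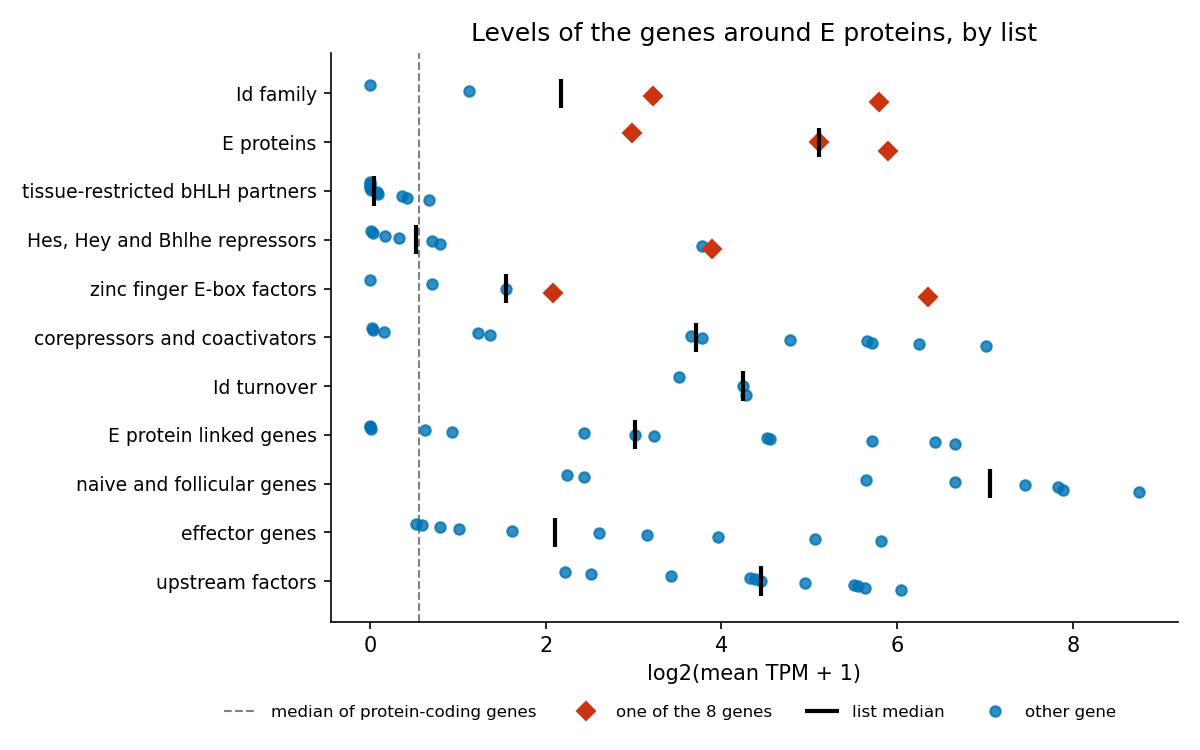
Mean level, as log2(mean TPM + 1), of each gene in the 11 lists, with diamonds for the 8 genes, a bar at each list median and a dashed line at the median of protein-coding genes, 0.55. The tissue-restricted bHLH partners lie near 0, and the naive and follicular genes lie furthest to the right, with a median of 7.06.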

How the data were processed

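Total RNA of 4 splenic T cell libraries was analysed. The build was mm10 and the annotation GENCODE M21, per the text that came with the deposited tables, and each library was quantified alone. The library kit keeps strand, per the labels' protocols. Which aligner and quantifiers were run is not given in the sources used here. Expected counts, as deposited, estimate reads for each gene or transcript, with no normalization, and were rounded for tests. The deposited TPM, with its posterior mean, divides by effective length and sums to the same total over all targets, and the deposited FPKM scales to length and depth. The deposited percent values give a transcript's share of its gene. The interval bounds of the posterior mean are a deposited signal on the TPM scale, at a level that is not stated. A second deposited transcript table gave estimated counts and TPM, which were summed per gene.

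All 55536 mouse genes matched M21. The 26248 numeric identifiers (at most 8.75e-05% of counts) and 97 spike-ins (0.299% to 0.347%) stayed out of library sizes and tests. Reads of CAST/EiJ alleles were assigned to a C57BL/6 reference, which could lower counts where the strains differ. A complete coding transcript is one annotated as protein coding with both ends of its coding sequence. E12 and E47 exons were found by their transcripts in M21 and aligned with biopython 1.88, an analysis added after the data had been seen.

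The goodness-of-fit test used edgeR 4.0.16 and limma 3.58.1 in R 4.3.3, with TMM scaling, filterByExpr, trended dispersion and a model of the intercept alone, and was checked on simulated counts. DESeq2 1.42.0 size factors were an alternative. Log2 CPM used TMM scaling and a prior count of 2, whereas CPM values were scaled to the library total alone. Tables were made with Python 3.11.15, pandas 2.3.3 and numpy 2.4.6. Floors of 3 counts cover counting error only, since PCR copies are not independent. The 8 genes and all lists were chosen with earlier results of these data known. Named were the 8 genes, their transcripts with a mean share of at least 10% (at most 4 a gene), and the top 3 and the called genes of each gene list. For markers, sums and a few of these genes are given. Some genes that this rule covers are not reported here by name, though they remain in sums and counts. Genes with no counts, Id1, Gzmb, Klrg1, S1pr5, Cx3cr1, Id2-202 and Tcf12-207 were named after their values were seen. No gene of like pattern was sought, as 1 group gives no pattern to match.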

Additional observations from a re-analysis of the deposited data

Results flagged for a closer look

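Of 46 sets of 4 values examined, 4 had a library far from the rest, by a criterion that chance meets in about 1 in 20 sets. The summed TPM of the 10 tissue-restricted bHLH partners was 2.79 in library 4 against 0.75 to 0.99 in the others, of which Lyl1 gave 1.69. Library 4 was also far above the others in summed B cell markers, 170.71 against at most 20.71 TPM, and in summed erythroid markers, 633.85 against at most 62.62 TPM. Library 2 stood apart in summed neutrophil markers, 32.59 against at most 10.75 TPM. No level of the 8 genes met the criterion. The part of these other cells in the levels of the 8 genes was not tested.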

How the results depend on the processing

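With 3 libraries at a time, each of the 7 neighbour ratios kept its direction. For pairs with the same sign in every library this was fixed in advance. For the pairs that could not be ordered the ratio came close to 0. The log2 ratio of Tcf12 to Id2 was 0.034 ± 0.166 without library 4. That of Id3 to Tcf4 was 0.146 ± 0.347 without library 2. Directions reversed for Zeb1 to Tcf12 (log2 ratio -1.90 over protein-coding and -1.02 over complete coding transcripts), for Tcf12 to Id2 (-0.49 and -1.43), for Id3 to Tcf4 with posterior mean TPM (-0.41), and for the deviation of Tcf3 in library 3, from -0.0039 in log2(TPM + 1) to 0.044 in log2 CPM. Genes called as variable numbered 183, against 279 with no filter beyond a total above 0, 353 with a common dispersion, 265 with a mean of at least 10 counts and 116 to 146 with 1 library left out, of which 85 to 130 were among the 183. Rescaled over protein-coding genes, all 8 levels rose about alike, to 158 TPM for Id2 and 9.37 for Zeb2. This follows from the method, which multiplies all genes of a library by the same factor. In the second quantification 7 of 8 levels moved by 1 SD or more. Means there were 67.9 TPM for Id2, 46.4 for Tcf3 and 76.9 for Tcf12. So did 15 of 26 transcript shares and 5 of 8 coding shares move, but all 7 neighbour ratios kept their direction. The reversals over protein-coding or complete coding transcripts follow from which transcripts were counted. The cause of the remaining changes was not tested. The 3 called list genes outside the markers, Lmo2, Cbfa2t3 and Cxcr4, had edgeR adjusted p-values of 0.0664, 0.0762 and 0.0565 with no filter beyond a total above 0. The alternatives by complete coding transcripts, posterior mean and share of counts, and those for list genes, were chosen after seeing the data. No paired analysis was possible because there is 1 group. Depth limits Id3 and Zeb2 most, with at most 186 and 226 counts in a library.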
